A study of Mus musculus with 110 samples.

Results

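The 8 genes described here are Cidea, Elovl3, Cox8b, Cox7a1, Cpt1b, Otop1, Kcnk3 and Fabp3, a set of brown adipocyte marker genes chosen by name from the 56884 genes of the deposited count tables. They were followed in liver, interscapular brown adipose tissue (iBAT), inguinal white adipose tissue (iWAT) and epididymal white adipose tissue (eWAT) of 28 wild-type male C57BL/6N mice. Every mouse was single-housed and ate a diet without cysteine. Control mice received 0.86% methionine and methionine-restricted (MetR) mice 0.12% by the series' design text, each over 7 days at a room temperature of 22 °C. The study's methods state a slightly lower methionine content for the control diet. The groups at room temperature are Ctrl_RT and MetR_RT, and the groups Ctrl_CE and MetR_CE spent a further 24 h at 4 °C (cold exposure, CE). Control mice therefore also lacked dietary cysteine, and the cold groups ate their diet for a longer time in all.

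Brown adipocytes are dense in mitochondria and burn fatty acids to produce heat, using uncoupling protein 1 (Ucp1) to let protons leak back across the inner mitochondrial membrane. Norepinephrine released in the cold acts on them through beta-adrenergic receptors, drives lipolysis and raises transcription of the thermogenic genes. White depots such as iWAT hold beige adipocytes, which take on the same programme when stimulated, whereas visceral depots such as eWAT do so less readily. Among the 8 genes, Cidea encodes a lipid droplet protein, Elovl3 an elongase of very long chain fatty acids, and Fabp3 an intracellular fatty acid binding protein. Cpt1b encodes the muscle-type carnitine palmitoyltransferase that admits fatty acids to mitochondria, while Cox8b and Cox7a1 encode subunits of cytochrome c oxidase. Otop1 encodes a proton channel, and Kcnk3 a potassium leak channel. Fabp3, Cpt1b, Cox7a1 and Cox8b are known from striated muscle as well as from brown fat, and Elovl3 also from liver.

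RNA sequencing gave 110 libraries with 6987895 to 33444374 counts, of which 105 were used, and groups had 7 libraries except iBAT Ctrl_RT, iBAT Ctrl_CE, iWAT MetR_CE and eWAT MetR_RT, with 6, and eWAT Ctrl_RT, with 4. The study left out 1 iBAT and 4 eWAT libraries, and values with them are given where they change a result. For 3 iBAT libraries, each replicate 1 of MetR_RT, Ctrl_CE and MetR_CE by title, a treatment tag named another group, and titles were followed. The liver, iWAT and eWAT libraries of the same 3 mice carried the group of that title in both title and tag. Grouping by the tag, given below as an alternative, therefore goes against the other labels of these mice. The library with the title Ctrl_CE and the tag MetR_RT held 1728 CPM of Elovl3 and 1655 CPM of Kcnk3, above the highest other MetR_RT values of 714 and 864. Adipocyte and liver identity followed the labels, with Plin1, the lipid droplet coat protein of adipocytes, at 1321.5 CPM or more in every adipose library and Alb at 32691 CPM or more in every liver library. Levels are in CPM, counts scaled to library size, after TMM normalization within a tissue. A gene was called changed at an adjusted p under 0.05 in edgeR's quasi-likelihood test (Benjamini-Hochberg over all genes tested) together with a change of 1.5-fold or more in either direction. In bulk tissue, fewer cells of a type and less RNA per cell cannot be told apart. Each mouse gave at most 1 library per tissue, so the spread between libraries of a group is that between mice.

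In Ctrl_RT mice the 8 genes were ordered iBAT over iWAT over eWAT. The distance between iBAT and iWAT spanned all 8 genes, from a log2 difference of 2.62 ± 0.24 (SE) for Kcnk3 to 5.47 ± 0.51 for Fabp3 in 1 fit over all tissues, and 8 of 8 were called, as were 33.3% of all genes tested between these depots. From iWAT to eWAT all 8 were again higher in iWAT, by 1.43 ± 0.27 for Kcnk3 and up to 8.06 ± 1.04 for Elovl3, where 16% of all genes were called. With the 4 eWAT libraries that the study left out put back, Fabp3 no longer differed in that direction, with a log2 difference of -0.38 (adjusted p = 0.71) in place of 3.90 ± 0.74.

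Compared per kilobase of exon, so that genes of unequal length can be set side by side, iBAT of Ctrl_RT mice held most of Cidea, with a median of 1749.5 CPM per kb and a range of 1543 to 1839. Cox8b followed at 1354 CPM per kb, with a range of 1240.3 to 1490.3 that lay below that of Cidea. Cox7a1 stood at 401 CPM per kb, Fabp3 at 241, Kcnk3 at 197, Elovl3 at 166 and Otop1 at 153. The ranges of neighbours in this stretch overlapped, as with Fabp3 at 199 to 457 beside Cox7a1 at 366 to 438 and Kcnk3 at 179.5 to 249.95. Cpt1b was lowest at 19.2 CPM per kb, with a range of 17.9 to 20.4 that met no other. In iWAT the order was led by Cox8b at 219.8 CPM per kb (109 to 325) and Cidea at 149 (34.3 to 278.45), whose ranges overlapped, and Cpt1b had the lowest median at 0.796 (0.274 to 2.395), a range that overlapped those of Elovl3 (0.913 to 37.1) and Fabp3 (1.23 to 21.2).

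**Figure D1:**
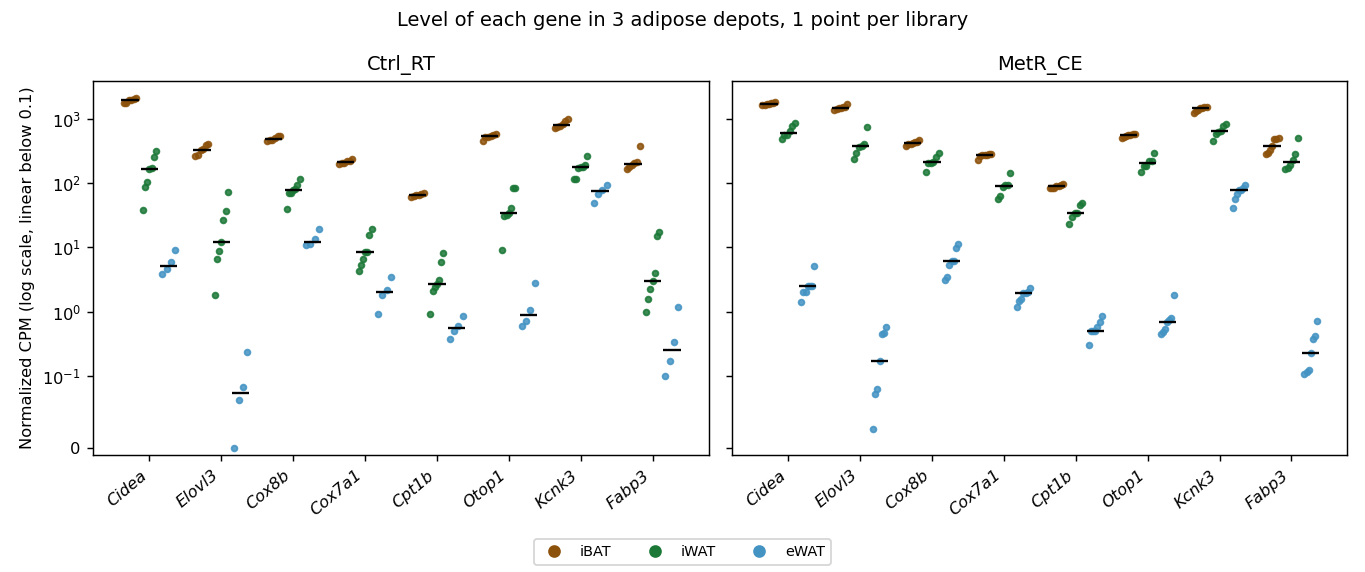
Normalized CPM of the 8 genes on a log scale that turns linear below 0.1, for iBAT (brown), iWAT (green) and eWAT (blue), in Ctrl_RT mice (left) and MetR_CE mice (right). Points are libraries and bars are medians. iBAT lies above iWAT and iWAT above eWAT for every gene in both panels by median, and the distance between iBAT and iWAT is smaller on the right.

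After combined treatment the distance between iBAT and iWAT was smaller. In MetR_CE mice 7 of 8 genes were called higher in iBAT, by log2 differences of 1.27 ± 0.24 for Cox8b to 2.24 ± 0.51 for Elovl3, where 28.5% of all genes were called. Fabp3 was the exception, at 0.95 ± 0.44 (adjusted p = 0.076). With the mouse as a block Fabp3 was called too, at 0.96 (adjusted p = 0.031).

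The genes lie apart in the genome, with Elovl3 on chromosome 19 (46131897 to 46135694), Cox8b and Cox7a1 at distant places on chromosome 7 (140898945 to 140900446 and 30184144 to 30186078), and Cpt1b on chromosome 15 (89416405 to 89425863), in GRCm38 coordinates. Otop1 and Kcnk3 share chromosome 5 (38275972 to 38304217 and 30588170 to 30625271), and Fabp3 is on chromosome 4 (130308595 to 130315463). All are protein-coding. Cpt1b shares 2744 of its 3372 exonic bases with the read-through gene Gm44502 on the same strand, which held 28 counts over all iWAT libraries against 12788 for Cpt1b. How reads in the shared bases were assigned or dropped is not known, so the effect of this overlap on Cpt1b cannot be told. The levels of Cpt1b per kilobase carry the same uncertainty. Fabp3 and Kcnk3 have 161 and 229 exonic bases that antisense genes also cover.

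Promoters are shown because the genes moved together in iWAT. RefSeq sequences of GRCm38.p6, covering 250 bases before and 50 after the annotated start, were at hand for 4 of the 8 genes, and capitals mark a match to a searched motif.
Cox8b: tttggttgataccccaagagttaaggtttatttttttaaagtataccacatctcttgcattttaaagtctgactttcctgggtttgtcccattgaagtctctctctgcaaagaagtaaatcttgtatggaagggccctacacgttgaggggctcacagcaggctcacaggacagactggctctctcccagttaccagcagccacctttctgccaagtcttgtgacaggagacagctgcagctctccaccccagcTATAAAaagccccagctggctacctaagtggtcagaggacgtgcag
Cox7a1: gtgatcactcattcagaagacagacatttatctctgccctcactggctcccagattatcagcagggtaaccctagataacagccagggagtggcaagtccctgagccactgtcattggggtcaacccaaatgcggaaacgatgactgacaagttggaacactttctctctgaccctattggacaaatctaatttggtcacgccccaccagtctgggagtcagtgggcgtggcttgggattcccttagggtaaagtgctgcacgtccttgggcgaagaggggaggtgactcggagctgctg
Otop1: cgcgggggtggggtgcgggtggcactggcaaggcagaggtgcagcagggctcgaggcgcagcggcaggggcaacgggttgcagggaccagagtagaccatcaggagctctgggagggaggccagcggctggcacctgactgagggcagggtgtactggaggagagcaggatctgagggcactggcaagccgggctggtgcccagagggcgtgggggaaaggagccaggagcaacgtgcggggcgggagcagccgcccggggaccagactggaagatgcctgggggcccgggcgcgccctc
Fabp3: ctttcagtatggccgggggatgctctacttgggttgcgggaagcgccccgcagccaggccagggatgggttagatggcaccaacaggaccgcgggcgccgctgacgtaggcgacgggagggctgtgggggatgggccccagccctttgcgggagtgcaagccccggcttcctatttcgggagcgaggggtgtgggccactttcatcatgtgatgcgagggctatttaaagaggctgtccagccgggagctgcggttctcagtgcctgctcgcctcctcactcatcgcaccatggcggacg
These windows are chr7:140900397-140900696 (minus strand), chr7:30183921-30184220, chr5:38277154-38277453 and chr4:130308488-130308787 (plus strand). The Otop1 window lies wholly within the gene span given above, which begins at 38275972, so the annotations place its start differently. A search of this window does not cover the start of that span. The starts of Cox7a1 and Fabp3 also differ between the annotations, though their windows include the start of the span. Searched on both strands were TATAAA, the cyclic AMP response element TGACGTCA, the palindrome CCCNNGGG, TCAAGGTCA and a direct repeat of AGGTCA with 1 base between the copies, where the last 2 share the letters AGGTCA. The single match was TATAAA in the Cox8b window, 4 bases after the annotated start. Of all 32851 promoters of the table, 13.6% held TATAAA, 13.7% CCCNNGGG, 1.79% TGACGTCA, 0.423% TCAAGGTCA and 0.0396% the spaced repeat, and no match says only that these letters are absent from a window.

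In iWAT all 8 genes rose with each treatment. Cold alone raised 8 of 8 (15.9% of all genes were called in this comparison, and 5.99% rose), methionine restriction alone raised 8 of 8 (11.6% called, 4.25% rose), and both together raised 8 of 8 (22.4% called, 8.05% rose). The median log2 fold change over the 8 genes was 1.93 for Ctrl_CE, 2.21 for MetR_RT and 2.703 for MetR_CE against Ctrl_RT, beside medians of -0.11, -0.03 and -0.08 over all genes tested. Each of these 24 calls remained when any 1 of the 27 iWAT libraries was left out.

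Of the lipid handling genes, Elovl3 lay between 1.80 and 73.3 CPM (median 12.1) in iWAT of Ctrl_RT mice. It reached 82.2 to 565 (median 222) in Ctrl_CE, 28.8 to 375 (median 119.9) in MetR_RT and 235 to 730.1 (median 369) in MetR_CE. All Ctrl_CE and MetR_CE libraries thus lay above all Ctrl_RT libraries, while MetR_RT and Ctrl_RT overlapped. Its log2 fold changes were 3.40 ± 0.61 for Ctrl_CE (adjusted p = 0.00013), 2.93 ± 0.60 for MetR_RT (adjusted p = 0.00075) and 4.07 ± 0.64 for MetR_CE (adjusted p = 1.28e-05).

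Fabp3 moved farthest of the 8 genes in iWAT, starting from 1.01 to 17.4 CPM (median 3.05) in Ctrl_RT. Ctrl_CE libraries held 11.4 to 369 CPM (median 70.6), MetR_RT libraries 7.58 to 324 (median 55.5) and MetR_CE libraries 166 to 506 (median 211). Single-treatment groups were widely scattered and overlapped with Ctrl_RT at their low end, whereas every MetR_CE library lay above it. The log2 fold changes were 4.22 ± 0.81 for Ctrl_CE, 4.22 ± 0.81 for MetR_RT and 5.34 ± 0.86 for MetR_CE, the last a 40.4-fold rise.

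Cidea rose 2.73-fold in Ctrl_CE (log2 1.45 ± 0.41), 3.17-fold in MetR_RT (1.66 ± 0.41) and 3.98-fold in MetR_CE (1.99 ± 0.42). Its CPM ran from 38.3 to 310.5 (median 166) in Ctrl_RT, 139 to 732 (median 404) in Ctrl_CE, 121 to 831 (median 399) in MetR_RT and 476 to 853 (median 605) in MetR_CE. Only MetR_CE was free of overlap with Ctrl_RT.

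Cpt1b, whose product admits fatty acids to mitochondria, went from 0.923 to 8.08 CPM (median 2.68) in Ctrl_RT to 6.05 to 36.9 (median 20.8) in Ctrl_CE, 3.65 to 38.4 (median 13.6) in MetR_RT and 23.5 to 48.2 (median 33.7) in MetR_CE. These were rises of 6.41-fold, 5.78-fold and 9.81-fold, with adjusted p of 7.69e-05, 0.00025 and 4.21e-06.

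Cox7a1 went from 4.35 to 19.7 CPM (median 8.41) in Ctrl_RT to 13.2 to 63.8 (median 34.2) in Ctrl_CE, 15.6 to 139.7 (median 49.8) in MetR_RT and 57.4 to 144 (median 90.1) in MetR_CE, with log2 fold changes of 1.84 ± 0.42, 2.91 ± 0.43 and 3.19 ± 0.44. Its partner subunit gene Cox8b moved least of the 8 genes under cold, at 0.88 ± 0.26 (adjusted p = 0.0097), and by 1.41 ± 0.26 and 1.48 ± 0.27 in MetR_RT and MetR_CE. Cox8b ran from 39.4 to 117 CPM (median 79.1) in Ctrl_RT, 77.3 to 211 (median 147) in Ctrl_CE, 87.7 to 322 (median 175) in MetR_RT and 148 to 295.7 (median 210.4) in MetR_CE. For these 2 subunit genes the MetR_RT median exceeded the Ctrl_CE median, and for the other 6 genes it did not. The split depends on the measure, since the fitted change of Cidea was also larger in MetR_RT (1.66 ± 0.41 against 1.45 ± 0.41). That of Fabp3 was 4.22 in both. Ctrl_CE and MetR_RT overlapped for all 8. Skeletal muscle markers had median log2 fold changes of 1.78 in MetR_RT and -1.61 in Ctrl_CE. Cox7a1 and Cox8b are known from muscle, but so are Cpt1b and Fabp3, which did not share the split. The part of muscle in it was not tested.

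Among the channels, Otop1 ran from 9.01 to 83.3 CPM (median 34.4) in Ctrl_RT, 66.6 to 263.1 (median 169.6) in Ctrl_CE, 49.4 to 260.4 (median 167) in MetR_RT and 147 to 289.6 (median 203) in MetR_CE. Its rises were 4.05-fold, 3.71-fold and 4.64-fold. Kcnk3, which was well expressed before treatment, ran from 116 to 266.4 CPM (median 175), then 265.8 to 966 (median 489), 235 to 565 (median 443) and 443 to 818 (median 632) in the same order of groups, with rises of 3.31-fold, 2.34-fold and 3.75-fold.

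**Figure D2:**
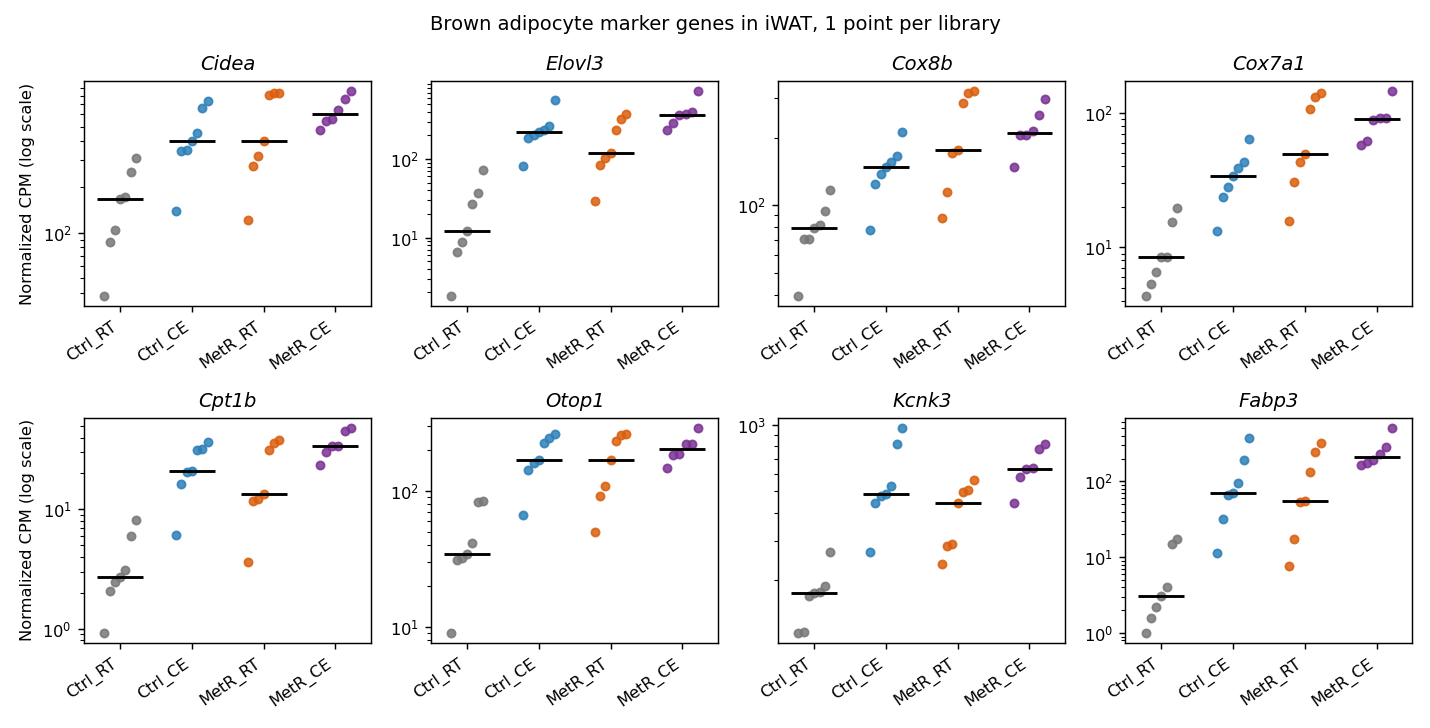
Normalized CPM of the 8 genes in iWAT on log axes, 1 point per library and a bar at the median, for Ctrl_RT (grey), Ctrl_CE (blue), MetR_RT (orange) and MetR_CE (purple). In each panel Ctrl_RT has the lowest median and MetR_CE the highest, and no MetR_CE point lies within the Ctrl_RT range.

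The ranges of Ctrl_RT and MetR_CE did not overlap for 8 of 8 genes, as for 18.6% of all genes tested in iWAT. Between Ctrl_RT and Ctrl_CE this held for Elovl3 alone (6.60% of all genes), and between Ctrl_RT and MetR_RT for 0 of 8 (4.77% of all genes). The medians of all 8 genes were lowest in Ctrl_RT and highest in MetR_CE.

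Spread between mice was shared among the genes. In Ctrl_RT, MetR_RT and Ctrl_CE, a single iWAT library (replicates 2, 5 and 7, respectively) had the lowest value for all 8 genes. In MetR_CE, replicate 1 was highest for 7 of 8 and replicate 2 lowest for 6 of 8. Pearson's r between pairs of the 8 genes, over 27 iWAT libraries that share their depth and normalization, lay between 0.85 (Cox8b with Kcnk3) and 0.98 (Cpt1b with Otop1). After group means were subtracted it still lay between 0.75 and 0.96. Coefficients of variation were 20.99% to 49.9% in MetR_CE, with a median of 24.9%, and 28.2% to 108% in the other 3 groups, with medians of 45.8% to 62.5%.

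Genes most like the mean pattern of the 8 in iWAT, among 13896 genes with a mean of at least 1 CPM, were Pank1, which is also in the list of other brown adipocyte genes given below (r = 0.986 over 27 libraries), the electron transfer gene Etfdh (0.985), Oxnad1 (0.985), Hadha, a subunit of the mitochondrial trifunctional protein of beta-oxidation (0.983), and Etfrf1 (0.982). Within groups these values were 0.978, 0.96, 0.973, 0.963 and 0.945. Ucp1 itself stood at place 93 with r = 0.956.

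Markers of other cells moved in iWAT as well. All 6 macrophage markers fell in each treated group, and their summed level was 1483 to 2433 CPM in Ctrl_RT, 316 to 1694 in Ctrl_CE, 265.8 to 1143 in MetR_RT and 202 to 504 in MetR_CE, with none of the 6 at 0. The 8 general adipocyte markers had median log2 fold changes of 0.39, 0.37 and 0.65, of which 2, 0 and 6 rose (edgeR), and summed to 20719 to 28456 CPM in Ctrl_RT and 35935 to 40694 in MetR_CE. Skeletal muscle markers were scattered within groups, at summed levels of 28.8 to 7008 CPM in Ctrl_RT, 45.2 to 1806 in Ctrl_CE, 169 to 27491 in MetR_RT and 64.4 to 6717 in MetR_CE, with 0, 1 and 3 of 15 called. Their median log2 fold changes were -1.61, 1.78 and 0.33 in Ctrl_CE, MetR_RT and MetR_CE. Across the 27 libraries, which share depth and dissection, the summed muscle markers had a Spearman rho of -0.093 with the sum of the 8 genes. Genes with high CPM weigh most in that sum, with medians over these libraries of 443 for Kcnk3 and 399 for Cidea. Fabp3, Cox7a1 and Cpt1b had medians of 66.7, 39.2 and 20.5, so the rho says little about them. Epithelial, endothelial, lymphocyte and hepatocyte markers gave 0 to 4 calls per comparison, and 7 hepatocyte markers summed to 17.7 to 37.5 CPM in Ctrl_RT and 32.2 to 99.5 in the treated groups. The part of these cells in the change of the 8 genes was not tested.

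Of 22 other brown adipocyte and thermogenic genes, 15 rose and 1 fell in iWAT of Ctrl_CE mice, 16 rose and 0 fell in MetR_RT, and 16 rose and 1 fell in MetR_CE, with median log2 fold changes of 1.75, 1.58 and 2.29. The largest changes in MetR_CE were those of Bmp8b (5.93 ± 0.89), the thyroid hormone activating deiodinase gene Dio2 (5.21 ± 0.57), Gpr3 (4.81 ± 0.54) and Ucp1 (4.58 ± 0.77). Ucp1 went from 1.27 to 449 CPM (median 72.4) in Ctrl_RT to 2173 to 5658 (median 3770) in MetR_CE, with no overlap. Of 5 beige adipocyte markers, 0 rose in any treated group and 2, 3 and 3 fell (Cited1 and Tmem26 in each, Ear2 in MetR_RT and MetR_CE), at a summed level of 5.38 to 26.1 CPM over all iWAT libraries. Of 8 white adipocyte markers, 1 rose and 1 fell in Ctrl_CE, 0 moved in MetR_RT and 1 rose in MetR_CE.

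Paralogs of the 8 genes moved in both directions. Of 23 tested in iWAT, 4 rose and 4 fell in Ctrl_CE, 5 rose and 2 fell in MetR_RT, and 4 rose and 6 fell in MetR_CE, with median log2 fold changes of -0.09, -0.18 and -0.25. Beside Cox7a1, its broadly expressed counterpart Cox7a2 had a value of 0.67 ± 0.13 (called) in MetR_CE, and the related gene Cox7a2l had 0.26 ± 0.09. Beside Cox8b, Cox8a had 0.54 ± 0.10 in MetR_CE. Beside Cpt1b, the liver-type Cpt1a had 0.43 ± 0.20, beside Elovl3, Elovl6 had 0.43 ± 0.39, beside Cidea, Cidec had 0.39 ± 0.13, and beside Fabp3, the adipocyte gene Fabp4 had 0.35 ± 0.13, of which none was called in MetR_CE. Elovl6 was called in the single treatments, at 1.15 ± 0.38 in Ctrl_CE and 1.09 ± 0.38 in MetR_RT. The largest paralog changes in MetR_CE were in Cideb (3.62 ± 0.58), Fabp2 (-2.24 ± 0.78), Fabp7 (-2.07 ± 0.53) and Cpt1c (-1.57 ± 0.25).

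Whether cold and diet added to each other was tested against each single treatment and as an interaction. Against MetR_RT, MetR_CE had 0 of 8 genes called by edgeR (1.88% of all genes were called), 1 at an unadjusted p under 0.05 and 0 called by DESeq2. That gene was Kcnk3, at 0.68 (95% interval 0.20 to 1.16; adjusted p = 0.10). The log2 differences ran from 0.07 (-0.45 to 0.59) for Cox8b to 1.14 for Elovl3 (adjusted p = 0.26). Against Ctrl_CE, again 0 of 8 were called (2.27% of all genes), with 2 at an unadjusted p under 0.05 and 1 called by DESeq2. That gene was Cox7a1, at 1.35 (0.54 to 2.17; adjusted p = 0.067 in edgeR and 0.021 in DESeq2), and leaving out MetR_RT replicate 5 or Ctrl_CE replicate 2 also brought its adjusted p to 0.043 and 0.042. Kcnk3 lay at the other end with 0.18 (-0.30 to 0.67). In this comparison with Ctrl_CE the 15 skeletal muscle markers had a median log2 fold change of 2.13, with 1 called. The part of muscle in the Cox7a1 value was not tested.

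On the log scale the interaction of diet and temperature was negative for all 8 genes in iWAT, from -0.81 ± 0.37 for Cox8b to -3.10 ± 1.06 for Fabp3. The MetR_CE estimates were thus below the product of the single-treatment folds. edgeR called 0 of 8 (1.65% of all genes), with adjusted p of 0.080 (Otop1) to 0.30 (Cidea) and with 7 of 8 at an unadjusted p under 0.05, while DESeq2 called 6, namely Cox7a1, Cpt1b, Elovl3, Fabp3, Kcnk3 and Otop1. With Ctrl_RT replicate 5 left out, edgeR called Kcnk3, Otop1 and Elovl3, and with MetR_RT replicate 5 or Ctrl_CE replicate 7 left out, it called Kcnk3, Otop1 and Cpt1b.

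**Figure D3:**
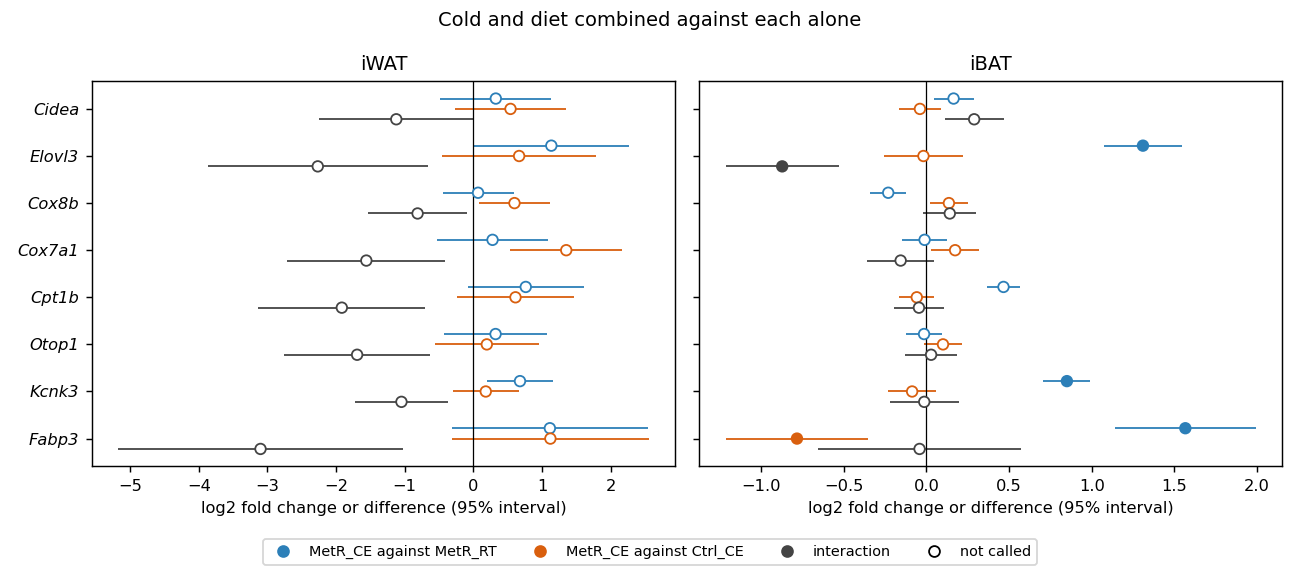
Log2 fold changes with 95% intervals of the 8 genes in iWAT (left) and iBAT (right) for MetR_CE against MetR_RT (blue), MetR_CE against Ctrl_CE (orange) and the interaction of diet and temperature (grey). Filled points were called. In iWAT all interaction values lie below 0 and none was called by edgeR, and the horizontal scales of the panels differ.

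In iBAT, where the genes were high before treatment, 3 of 8 rose with cold and the rest moved by less than 1.5-fold. Elovl3, Kcnk3 and Fabp3 were called in Ctrl_CE (14.7% of all genes were called, and 4.97% rose). Elovl3 went from 264.9 to 397 CPM (median 328) in Ctrl_RT to 877 to 1781 (median 1658), a 4.54-fold rise (log2 2.18 ± 0.13; adjusted p = 4.94e-13). Kcnk3 went from 714 to 993.8 CPM (median 784) to 1332 to 1655 (median 1473), a 1.82-fold rise (0.86 ± 0.08). Fabp3 went from 164 to 376 CPM (median 198) to 530.4 to 870.4 (median 687), a 3.05-fold rise (1.61 ± 0.23). Ctrl_RT and Ctrl_CE ranges did not overlap for these 3 genes, nor for Cpt1b and Cox8b, as for 15.6% of all genes in iBAT.

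Cpt1b passed the adjusted p in iBAT without reaching the fold threshold, at 60.3 to 68.9 CPM in Ctrl_RT and 82.4 to 101 in Ctrl_CE (0.51 ± 0.06; adjusted p = 2.05e-08). Cox8b had the opposite sign, at 447 to 536.5 CPM in Ctrl_RT and 336 to 405 in Ctrl_CE (-0.37 ± 0.06; adjusted p = 1.24e-05), so that its level in iBAT was lower under the cold that raised it in iWAT, though by less than the fold threshold. Cidea (-0.12 ± 0.07), Cox7a1 (0.14 ± 0.08) and Otop1 (-0.04 ± 0.06) passed neither criterion.

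Methionine restriction alone changed 2 of 8 genes in iBAT (2.5% of all genes called), and they moved in opposite directions. Elovl3 rose to 505 to 714 CPM (median 584), a 1.81-fold change (0.85 ± 0.13; adjusted p = 7.50e-05) without overlap with Ctrl_RT. Fabp3 fell to 78.5 to 219 CPM (median 124), a log2 change of -0.74 ± 0.22 (adjusted p = 0.039), with overlap. Grouped by the treatment tag, that Fabp3 value was -0.13 (adjusted p = 0.89), and it was not called either when only the groups compared entered the fit (-0.74; adjusted p = 0.083). Below the fold threshold, Cidea stood at -0.33 ± 0.06 (adjusted p = 0.0017) and Cox7a1 at 0.33 ± 0.07 (adjusted p = 0.0052), both without overlap of the ranges, as for 2.78% of all genes. Kcnk3, Cpt1b, Cox8b and Otop1 had log2 fold changes between -0.07 and 0.07.

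With both treatments, the same 3 genes as in the cold were called in iBAT (14.7% of all genes called). Elovl3 reached 1341 to 1694 CPM (median 1486; 2.16 ± 0.13), Kcnk3 1243 to 1538 (median 1463; 0.78 ± 0.08) and Fabp3 278.4 to 503 (median 371; 0.82 ± 0.22). Against MetR_RT, 3 of 8 genes were called (8.53% of all genes), again Elovl3 (1.31 ± 0.12), Kcnk3 (0.85 ± 0.07) and Fabp3 (1.57 ± 0.22). Grouped by the treatment tag, Fabp3 was called in neither, at 0.88 (adjusted p = 0.068) against Ctrl_RT and 1.01 (adjusted p = 0.067) against MetR_RT. Against Ctrl_CE, 1 of 8 was called (1.64% of all genes), and this was Fabp3, whose MetR_CE libraries at 278.4 to 503 CPM all lay below its Ctrl_CE libraries at 530.4 to 870.4, as for 1.79% of all genes (-0.78 ± 0.22; adjusted p = 0.035). The call on Fabp3 was lost with the replicate number as a block (-0.74; adjusted p = 0.058), with groups by the treatment tag (-0.61; adjusted p = 0.54) and without the 3 libraries whose tag differed (-0.75; adjusted p = 0.076). Replicate numbers do not mark the same mouse in different groups, and the differing tags go against the other labels of those mice.

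The interaction was called for 1 of 8 genes in iBAT (0.372% of all genes), namely Elovl3 at -0.87 ± 0.17 (adjusted p = 0.012). Elovl3 medians were 328 CPM without treatment, 584 CPM after the diet, 1658 CPM after cold and 1486 CPM after both, so MetR_CE was no higher than Ctrl_CE although each treatment alone raised the gene. Grouped by the treatment tag the interaction was -1.10 (adjusted p = 0.21). The other 7 genes lay between -0.16 and 0.29.

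**Figure D4:**
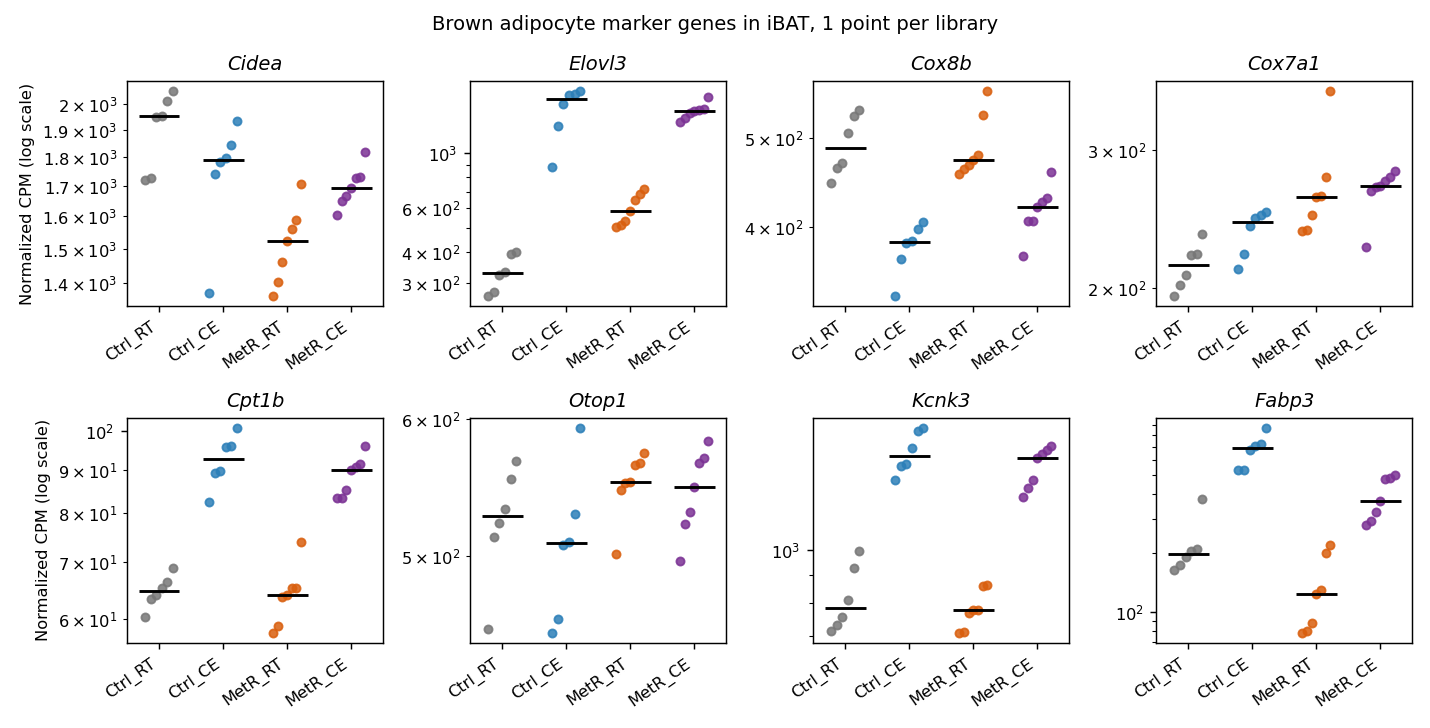
Normalized CPM of the 8 genes in iBAT on log axes, 1 point per library and a bar at the median, coloured by group; each panel has its own scale. Elovl3, Kcnk3 and Fabp3 are higher in the cold groups, with medians of 1658, 1473 and 687 CPM in Ctrl_CE against 328, 784 and 198 in Ctrl_RT, while Cox8b is lower there.

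The 8 genes varied less in iBAT, with median coefficients of variation of 6.73% to 9.36% by group, and not together. Pearson's r over 26 iBAT libraries ran from -0.79 (Cox8b with Kcnk3) to 0.92 (Cpt1b with Kcnk3), with a median of 0.078. Within groups the highest value was 0.81, for the oxidase genes Cox8b and Cox7a1. Genes most like the mean pattern in iBAT, among 12677, were Cgrrf1 (r = 0.922), Lonp2 (0.912), the carnitine carrier gene Slc25a20 (0.911), Arl8b (0.911) and Ei24 (0.909), and Ucp1 stood at place 355 (0.803).

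Among the other lists in iBAT, 8 of 22 thermogenic genes rose and 1 fell in Ctrl_CE, 0 rose and 1 (Dio2) fell in MetR_RT, and 9 rose and 1 fell in MetR_CE. Of 22 paralogs tested, 4, 2 and 5 rose and 2, 0 and 3 fell, among them Cpt1a, which rose by 1.80 ± 0.12 in Ctrl_CE beside the smaller value of Cpt1b, and Elovl6, which rose by 0.66 ± 0.07 in MetR_RT. Macrophage markers summed to 75.6 to 129 CPM in Ctrl_RT, 49.6 to 118 in Ctrl_CE, 40.7 to 73.7 in MetR_RT and 31.4 to 51.3 in MetR_CE, with 0, 3 and 5 of 6 lower against Ctrl_RT and 6 of 6 lower in MetR_CE against Ctrl_CE. Muscle markers summed to 31.03 to 2471 CPM in Ctrl_RT, 35.2 to 1652 in Ctrl_CE, 32.4 to 723 in MetR_RT and 35.2 to 903 in MetR_CE, with 1, 0 and 1 of 15 called. Their median log2 fold changes against Ctrl_RT were -0.17, -1.96 and -1.41, and -1.18 in MetR_CE against Ctrl_CE. Across the 26 iBAT libraries the summed muscle markers had a Spearman rho of 0.21 with the sum of the 8 genes. Hepatocyte markers were at 4.12 CPM or less in sum in all iBAT groups but Ctrl_RT, where they reached 59.8. The part of these cells in the iBAT values was not tested.

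The 2 depots were then compared for the size of their response. In Ctrl_CE the iWAT response exceeded that of iBAT for 6 of 8 genes (8.15% of all genes were called), from 1.24 ± 0.33 for Cox8b to 2.59 ± 0.63 for Fabp3 on the log2 scale. Elovl3 (1.21 ± 0.69; adjusted p = 0.29) and Kcnk3 (0.85 ± 0.32; adjusted p = 0.067) were not called, Kcnk3 being called with the mouse as a block (0.96; adjusted p = 0.042), and Fabp3 lost its call with all libraries (2.61; adjusted p = 0.067). In MetR_RT the iWAT response was larger for 8 of 8 genes (3.66% of all genes), from 1.29 ± 0.32 for Kcnk3 to 4.96 ± 0.64 for Fabp3. Elovl3 was the nearest to the threshold, at 2.08 ± 0.67 (adjusted p = 0.046), and 0.076 with all libraries. Each depot's response was measured against its own Ctrl_RT libraries, 7 in iWAT and 6 in iBAT, from largely the same mice. The main fit had no term for the mouse, so its standard errors and p-values treat depots of 1 mouse as independent. It also used 1 estimate of spread per gene for all tissues, although spread was smaller in iBAT than in iWAT.

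**Figure D5:**
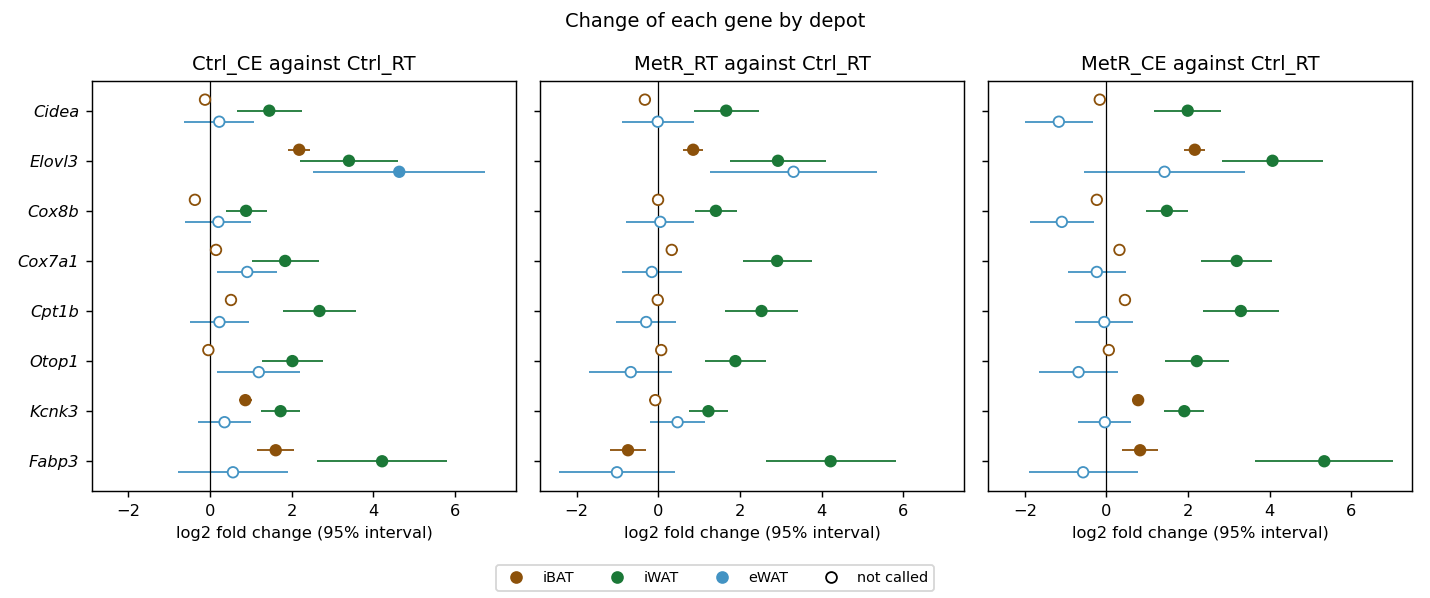
Log2 fold changes with 95% intervals of the 8 genes in iBAT (brown), iWAT (green) and eWAT (blue) for Ctrl_CE, MetR_RT and MetR_CE against Ctrl_RT. Filled points were called. All 24 iWAT points are filled, against 8 in iBAT and 1 in eWAT (Elovl3 in Ctrl_CE).

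In eWAT the genes were low and mostly did not move against Ctrl_RT. Cold alone raised 1 of 8 (2.42% of all genes called), Elovl3, whose Ctrl_RT libraries held 0.0675, 0.239, 0 and 0.0849 CPM and whose Ctrl_CE libraries held 0.525 to 5.82 (median 2.37), with no overlap, as for 4.29% of all genes. The fitted log2 fold change of 4.64 ± 1.07 (adjusted p = 0.014) rests on 2, 7, 0 and 2 counts in the Ctrl_RT libraries. Leaving out Ctrl_RT replicate 1 or 7 brought its adjusted p to 0.061 and 0.051, and with all libraries the value was 2.48 (adjusted p = 0.070). Cox7a1 (0.91 ± 0.38) and Otop1 (1.19 ± 0.52) had adjusted p of 0.18 and 0.20, and Cox7a1 was called with all libraries (1.04; adjusted p = 0.032).

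Methionine restriction alone gave 0 of 8 calls in eWAT by edgeR (0.115% of all genes), with 1 at an unadjusted p under 0.05 and 1 called by DESeq2, Elovl3 in both cases (3.31 ± 1.04; adjusted p = 0.26 in edgeR and 0.028 in DESeq2). Its MetR_RT libraries held 0.0343 to 2.95 CPM (median 0.743). MetR_CE against Ctrl_RT gave 0 of 8 by edgeR (1.3% of all genes), 2 at an unadjusted p under 0.05 (Cidea and Cox8b, both lower) and 0 by DESeq2. MetR_CE against MetR_RT gave 0 of 8 by edgeR (0.112% of all genes), 3 at an unadjusted p under 0.05 and 1 by DESeq2 (Cox8b, -1.16; adjusted p = 0.046).

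Under cold the diet groups differed in eWAT. Against Ctrl_CE, 5 of 8 genes were lower in MetR_CE (4.35% of all genes called). Elovl3 fell to 0.0266 to 0.581 CPM (median 0.175; -3.21 ± 0.76), Otop1 from 0.701 to 5.55 CPM (median 2.67) to 0.455 to 1.85 (median 0.702; -1.88 ± 0.44) and Cidea from 2.59 to 10.98 CPM (median 7.26) to 1.41 to 5.17 (median 2.48; -1.39 ± 0.38). Cox8b fell from 6.06 to 21.4 CPM (median 16.9) to 3.15 to 11.1 (median 6.08; -1.30 ± 0.36) and Cox7a1 from 0.981 to 6.52 (median 4.39) to 1.17 to 2.36 (median 1.959; -1.15 ± 0.32). The ranges of Ctrl_CE and MetR_CE overlapped for all 5. With all libraries 3 of 8 were called, Cox8b (adjusted p = 0.059) and Elovl3 (adjusted p = 0.052) being lost. Cpt1b (-0.28 ± 0.31), Kcnk3 (-0.39 ± 0.28) and Fabp3 (-1.13 ± 0.59) were not called.

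The interaction in eWAT was called for 1 of 8 genes (2.3% of all genes), Elovl3 at -6.53 ± 1.31 (adjusted p = 0.011), and with all libraries it was -4.23 (adjusted p = 0.15). Kcnk3 had the highest CPM of the 8 in eWAT, at 32.6 to 191 over the 24 libraries, and no contrast called it. General adipocyte markers summed to 29060 to 48111 CPM in the kept eWAT libraries and to 20696 to 25139 in the 4 left out, where epithelial markers summed to 92.8 to 723 CPM. Macrophage markers in eWAT summed to 412 to 975 CPM in Ctrl_CE and 345 to 572 in MetR_CE, with 2 of 6 lower, and muscle markers to 31.98 to 73.6 and 34.2 to 46.4 CPM, with 0 of 14 called. In Ctrl_RT the muscle markers summed to 51.1 to 462 CPM, highest in replicate 7. Across the 24 kept eWAT libraries their sum had a Spearman rho of 0.576 with the sum of the 8 genes. White adipocyte markers summed to 2875 to 4569 CPM in Ctrl_CE and 4287 to 7936 in MetR_CE, with 2 of 8 higher and 1 lower (Nnat, Slc7a10 and Wfdc21). The part of these cells in the eWAT values was not tested. Of 20 other thermogenic genes tested in eWAT, 1 rose and 1 fell in Ctrl_CE, 0 moved in MetR_RT and 2 fell in MetR_CE.

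Against eWAT, the iWAT response to cold was larger for 3 of 8 genes (4.18% of all genes called), Cpt1b (2.46 ± 0.57), Kcnk3 (1.36 ± 0.33) and Fabp3 (3.68 ± 1.08). With only the adipose depots in the fit, the Fabp3 call was lost (3.67; adjusted p = 0.057). The response to methionine restriction was larger in iWAT for 6 of 8 (3.52% of all genes), from 1.35 ± 0.36 for Cox8b to 5.31 ± 1.22 for Fabp3. Elovl3 (-0.35 ± 1.31) and Kcnk3 (0.75 ± 0.34; adjusted p = 0.22) were not called there.

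In liver Elovl3 fell with each treatment, while the other 7 genes stayed at 1.31 CPM or less in every library. It ran from 122 to 763 CPM (median 219) in Ctrl_RT, 13.04 to 244.9 (median 85.5) in Ctrl_CE, 22.9 to 226 (median 79.5) in MetR_RT and 12.3 to 97.4 (median 52.1) in MetR_CE. Ctrl_CE called 1 of 6 genes tested (11.9% of all genes), Elovl3 at -1.37 ± 0.52 (adjusted p = 0.048). MetR_RT called 2 of 6 (6.91% of all genes), Elovl3 at -1.53 ± 0.53 (adjusted p = 0.039) and Cpt1b at 1.01 ± 0.36 (adjusted p = 0.047). MetR_CE called 2 of 6 (13.5% of all genes), Elovl3 at -2.43 ± 0.54 (adjusted p = 0.00081) and Cpt1b at 1.05 ± 0.36 (adjusted p = 0.028). The direction of Elovl3 in liver was thus opposite to that in iBAT and iWAT; the difference between liver and depots was not tested. The single-treatment calls on Elovl3 were lost with the replicate number as a block, at -1.44 (adjusted p = 0.057) in Ctrl_CE and -1.50 (adjusted p = 0.070) in MetR_RT. That on Cpt1b in MetR_RT was lost as well, at 1.05 (adjusted p = 0.058). Replicate numbers do not mark the same mouse in different groups, so this block stands for no known pairing. Only the compared groups in the fit also ended the Elovl3 call in Ctrl_CE (adjusted p = 0.053) and the Cpt1b call in MetR_RT (adjusted p = 0.082), and the latter was lost with RLE normalization (adjusted p = 0.051) and without a filter (adjusted p = 0.067).

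Cpt1b stayed at 1.12 CPM or less in every liver library, so its calls concern a low level. edgeR called 0 of 6 genes between MetR_CE and MetR_RT (5.18% of all genes), 0 of 6 between MetR_CE and Ctrl_CE (5.26%) and 0 of 6 for the interaction (1.06%), with 0 at an unadjusted p under 0.05 and 0 called by DESeq2 in each. Cidea (7 counts over 28 liver libraries) and Otop1 (1 count) were under the filter of 10 counts and were not tested in liver.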

How the data were processed

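RNA-seq libraries were prepared from poly(A) RNA with the NEBNext Ultra II kit, and whether counting used strand is not given in the sources used here. The authors deposited raw counts per gene, whole numbers without normalization, against mm10, in 3 tables that hold 110 libraries as 1 column each. Their notes name STAR 2.7.9a, featureCounts 2.0.3 and Salmon 1.9.0, and the names of the tables point to Salmon, though the counts are whole numbers. Library totals were 6987895 to 33444374 counts. Gene symbols were paired with 51948 of 56884 IDs, of which 35 carried the ID version of the reference annotation (M21, GRCm38), and exon lengths come from that annotation.

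Groups came from sample titles. Libraries left out by the study (1 of iBAT, 4 of eWAT) were identified by matching each gene's mean normalized count over the kept libraries of a tissue to the study's source data (median deviation 0.251% and 0.151%, against 1.15% and 0.775% for the next best choice). For 3 iBAT libraries the treatment tag differs from the title, while the other libraries of these mice carry the title's group in both. Genes with at least 10 counts over a tissue were tested with edgeR 4.0.16 (TMM, quasi-likelihood test, diet, temperature and their interaction, all groups of a tissue in 1 fit). Depots were compared in 1 fit of all tissues without a term for the mouse, and the mouse as a block was an alternative. Thresholds were an adjusted p of 0.05 and a log2 fold change of 0.585 (1.5-fold). Standard errors (given after ±) are the log2 fold change over the square root of its F statistic, and 95% intervals are normal ones from them. Fold changes are from these fits, and CPM are TMM-normalized within a tissue. DESeq2 1.42.0, other filters, normalizations, groupings and blocks were alternatives. On simulated counts for Ctrl_CE against Ctrl_RT, 100%, 100%, 88% and 100% of genes changed 4-fold and 98%, 91%, 60% and 81% of those changed 2-fold were recovered in liver (21752 genes), iBAT (23469), eWAT (27176) and iWAT (25894), with 5, 2, 10 and 10 false calls. The changed genes were drawn from those with a mean of at least 1 CPM, with the spread typical of genes of their level. These shares therefore do not apply to genes under 1 CPM, or to genes that vary more than is typical.

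Replicate numbers are shared between groups, but each group held different mice, so the numbers do not mark the same mouse in different groups. Deviations of same-numbered libraries correlated from -0.603 to 0.699, with medians of -0.0051 to 0.109 by tissue. All 8 genes are reported in each tissue. Of other brown genes and of paralogs, up to 4 with the largest called change in iWAT MetR_CE are named, besides the paralogs set beside Cox7a1, Cox8b, Cpt1b, Elovl3, Cidea and Fabp3, the 5 genes most correlated with the mean z-score, and genes chosen for naming after their values were seen (the beige markers, the white markers in eWAT, Dio2, and Elovl6 and Cpt1a in single comparisons). The 8 genes and the lists were chosen with earlier results of these data known. Lists were described by counts and medians. The read-through gene Gm44502 and promoters were read from the reference annotation and RefSeq (GRCm38.p6). R 4.3.3, Python 3.11.15, pandas 2.3.3 and matplotlib 3.10.9 were used.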

Additional observations from a re-analysis of the deposited data

Results flagged for a closer look

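In 84 groups tested for a single library far from the rest (Dixon's test, which flags about 1 in 20 by chance), 7 stood apart. In iBAT these were Cidea in Ctrl_CE replicate 2 (1374 CPM), Cox7a1 in MetR_RT replicate 2 (356) and MetR_CE replicate 2 (226), Otop1 in MetR_RT replicate 2 (501) and Fabp3 in Ctrl_RT replicate 1 (376). The others were Cox8b in eWAT Ctrl_CE replicate 4 (6.06 CPM) and Elovl3 in liver MetR_CE replicate 1 (12.3 CPM).

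The effect of diet on Elovl3 differed between temperatures by a log2 value of -6.53 in eWAT and -0.87 in iBAT, both by the interaction term.

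Responses that differed between depots in the fit of all tissues were larger in iWAT. For cold, iWAT exceeded iBAT by 1.56 (Cidea), 1.24 (Cox8b), 1.68 (Cox7a1), 2.15 (Cpt1b), 2.05 (Otop1) and 2.59 (Fabp3), and eWAT by 2.46 (Cpt1b), 1.36 (Kcnk3) and 3.68 (Fabp3). For methionine restriction, iWAT exceeded iBAT by 1.99 (Cidea), 2.08 (Elovl3), 1.41 (Cox8b), 2.58 (Cox7a1), 2.54 (Cpt1b), 1.81 (Otop1), 1.29 (Kcnk3) and 4.96 (Fabp3), and eWAT by 1.67 (Cidea), 1.35 (Cox8b), 3.05 (Cox7a1), 2.84 (Cpt1b), 2.54 (Otop1) and 5.31 (Fabp3).

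Some eWAT libraries that the study left out held more of a gene than any kept library of eWAT Ctrl_RT. Fabp3 was at 10.4 CPM in Ctrl_RT replicate 4, 53.6 in Ctrl_RT replicate 5 and 27.8 in MetR_RT replicate 7, where kept eWAT libraries reached 1.25. Cpt1b was at 1.903, 4.91 and 3.70 CPM in the same 3 libraries, and Elovl3 at 2.42 CPM in Ctrl_RT replicate 5.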

How the results depend on the processing

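The counts of called genes stayed within 1.5 times their main value for 18 of 31 comparisons, among them the 3 iWAT comparisons with Ctrl_RT, at 8 of 8 under each alternative run. In iBAT, MetR_RT fell from 2 to 1 with only the compared groups or with groups by the treatment tag, MetR_CE against Ctrl_CE from 1 to 0 with the replicate block, with tag groups and without the 3 libraries whose tag differs, and the interaction from 1 to 0 with tag groups. In iWAT, MetR_CE against Ctrl_CE went from 0 to 1 with DESeq2 or only the compared groups and ranged from 0 to 1 over left-out libraries, and the interaction went from 0 to 6 with DESeq2, 1 with filterByExpr and 0 to 3 over left-out libraries. In eWAT, Ctrl_CE ranged from 0 to 1 over left-out libraries, MetR_RT and MetR_CE against MetR_RT went from 0 to 1 with DESeq2, and with all libraries MetR_CE went from 0 to 1 (Fabp3, -4.93, adjusted p = 0.034), MetR_CE against Ctrl_CE from 5 to 3 and the interaction from 1 to 0. In liver, Ctrl_CE went from 1 to 0 with only the compared groups or the replicate block, and MetR_RT from 2 to 1 with RLE normalization, no filter or only the compared groups and to 0 with the replicate block. The difference of Fabp3 between iWAT and eWAT in Ctrl_RT turned to -0.38 with all libraries. The cause of these changes was not tested. The replicate block changed no other count by over 1.5 times. Among values of single genes under alternatives, 603 kept their direction and side of the threshold, 22 lost a call, 16 gained one and 1 reversed. In eWAT, values under 1 CPM rest on few counts.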
